A study of Mus musculus with 12 samples.

Results

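The genes described here are 9 components of the NF-κB pathway in autoreactive CD8 T cells of the NOD mouse, a strain that develops spontaneous autoimmune diabetes. They were chosen by name and comprise 3 inhibitors of the IκB family (Nfkbia, Nfkbid and Nfkbiz), the ubiquitin-editing inhibitor Tnfaip3, 3 DNA-binding subunits (Nfkb1, Rel and Relb) and 2 adaptors of TNF receptor signaling (Traf1 and Birc3), out of 32285 genes in the count matrices. All 9 passed the filter on low counts.

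Single-cell RNA-seq with paired TCR sequencing was performed on CD8 T cells from prediabetic female NOD/ShiLtJ mice aged 10 to 15 weeks. Cells were sorted as CD45.1+ and CD8+ and negative for CD4, B220 and CD11b, and were divided with a Kd tetramer of NRP-V7, a peptide that mimics an epitope of the islet antigen IGRP. The 3 groups were tetramer-negative islet cells (islet IGRP-), tetramer-positive islet cells (islet IGRP+) and tetramer-positive spleen cells (spleen IGRP+), with 2 libraries each, one from each of 2 rounds. Each round pooled tissue from 10 mice, so a library is a pool and no animal can be told from another. The p-values therefore do not measure the spread between animals. They rest on 2 pools per group and on a spread estimated with information from all genes tested. All 3 groups shared the strain and the age range. Islets were released with collagenase P for 16 min at 37 °C and the dissociated cells rested for 1 h at 37 °C, whereas spleens were processed mechanically, lysed of red cells, enriched for CD8 T cells with magnetic beads and, per the study's own account, sorted as CD44+, so that tissue, handling and gate cannot be told apart in the comparison of islet with spleen.

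In resting T cells, NF-κB dimers are held in the cytoplasm by IκB proteins. Signals from the T cell receptor, or from TNF family receptors, through TRAF adaptors and ubiquitin ligases, activate the IκB kinases, and the freed dimers enter the nucleus. Among the genes they induce are the pathway's own brakes, IκBα (Nfkbia) and A20 (Tnfaip3), so the RNA of these inhibitors is widely read as a trace of recent pathway activity. IκBNS (Nfkbid) and IκBζ (Nfkbiz) are atypical family members that act in the nucleus on subsets of target genes. TRAF1 and cIAP2 (Birc3) are target genes that feed back on receptor signaling and cell survival.

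Promoter sequences are given for the inhibitors and the subunit that differed most between islet cells with and without Nr4a1 RNA (described further on) among the 6 genes matched in RefSeq (GRCm38.p6), namely Nfkbia, Nfkbid, Tnfaip3, Rel, Traf1 and Birc3. Nfkbiz, Nfkb1 and Relb were not matched. Each sequence is the 250 bases before the transcription start on the gene's strand, and capitals mark every match of the κB-type motif GGGNNNNNCC (N is any base) on either strand, where neighboring matches may overlap. Where a gene had several starts, the one nearest to the annotated start of the gene is shown.

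Nfkbia, chr12:55492648-55492897, minus strand: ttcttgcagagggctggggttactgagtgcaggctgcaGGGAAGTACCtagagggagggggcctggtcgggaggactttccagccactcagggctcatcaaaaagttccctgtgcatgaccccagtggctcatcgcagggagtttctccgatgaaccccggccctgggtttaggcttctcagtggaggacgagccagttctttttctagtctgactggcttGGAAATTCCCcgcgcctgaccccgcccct
Nfkbid, chr7:30421481-30421730, plus strand: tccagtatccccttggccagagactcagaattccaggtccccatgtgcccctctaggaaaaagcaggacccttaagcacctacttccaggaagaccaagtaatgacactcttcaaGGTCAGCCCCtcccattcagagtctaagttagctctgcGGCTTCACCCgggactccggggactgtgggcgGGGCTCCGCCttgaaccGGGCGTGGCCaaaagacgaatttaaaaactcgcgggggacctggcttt
Tnfaip3, chr10:19015411-19015660, minus strand: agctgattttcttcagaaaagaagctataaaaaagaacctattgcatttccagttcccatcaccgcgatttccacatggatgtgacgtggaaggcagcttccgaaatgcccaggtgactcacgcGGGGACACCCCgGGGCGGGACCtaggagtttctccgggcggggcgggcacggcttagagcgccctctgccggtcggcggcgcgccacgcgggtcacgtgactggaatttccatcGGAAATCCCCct
Rel, chr11:23770970-23771219, minus strand: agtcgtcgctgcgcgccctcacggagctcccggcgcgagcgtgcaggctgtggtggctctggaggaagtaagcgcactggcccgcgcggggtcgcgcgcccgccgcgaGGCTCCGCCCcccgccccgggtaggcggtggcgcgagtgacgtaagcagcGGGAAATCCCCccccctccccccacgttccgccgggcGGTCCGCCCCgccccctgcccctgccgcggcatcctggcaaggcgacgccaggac

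The Nfkbia window held 2 matches, beginning 212 and 29 bases before the start. The Nfkbid window held 4, the Tnfaip3 window 6 and the Rel window 5, of which several overlapped each other, while Birc3 held 1 and Traf1 held 0. Of 32851 promoter windows of the same length in the reference, 45.8% held at least 1 match, 25.5% at least 2 and 13.6% at least 3. A match describes letters only and does not show binding.

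The 6 matrices listed 26818 cells, of which 24117 passed the filters, and the kept cells held between 5880696 and 40469961 UMIs per library with medians from 2590 to 4216.5 UMIs per cell. Libraries shared between 2 and 64 cell barcodes per pair, at most 1.03% of the smaller library, and 0 of the shared barcodes carried the same TCR in both. The 5 CD8 T cell markers summed to 4042 to 5616 CPM (counts per 1000000 UMIs) in all 6 libraries, whereas Cd4 was at 0 in 3 of them and the B cell markers did not exceed 11.4 CPM in sum. Acinar RNA was carried by islet libraries. The 8 acinar markers summed to 52.4 and 147 CPM in islet IGRP+, 113 and 381 CPM in islet IGRP- and 5.62 and 6.51 CPM in spleen, where 6 of the 8 were at 0. The 5 endocrine markers reached 3.05 to 13.8 CPM in islet libraries and were all at 0 in spleen. In 14 kept cells of islet IGRP- Round 2 and 1 of islet IGRP+ Round 2 at least 5% of the UMIs came from the acinar markers, and every call of the 9 genes in the comparisons below was the same when those cells and cells without a CD8 T cell marker were left out.

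Levels are given as CPM of the UMIs summed over all kept cells of a library, Round 1 first. A lower CPM may reflect fewer cells that express a gene or less RNA per cell, which the sum cannot tell apart. Differences were tested with edgeR's quasi-likelihood test on the summed UMIs of the 6 libraries, with Benjamini-Hochberg adjustment over 11277 genes. Both comparisons use the same 2 islet IGRP+ libraries. Because each round's libraries came from the same mice, the value with round as a block is given where it changes a call. With the block, little of a gene's own spread is left to measure, so small p-values lean largely on the spread of other genes.

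**Figure D1:**
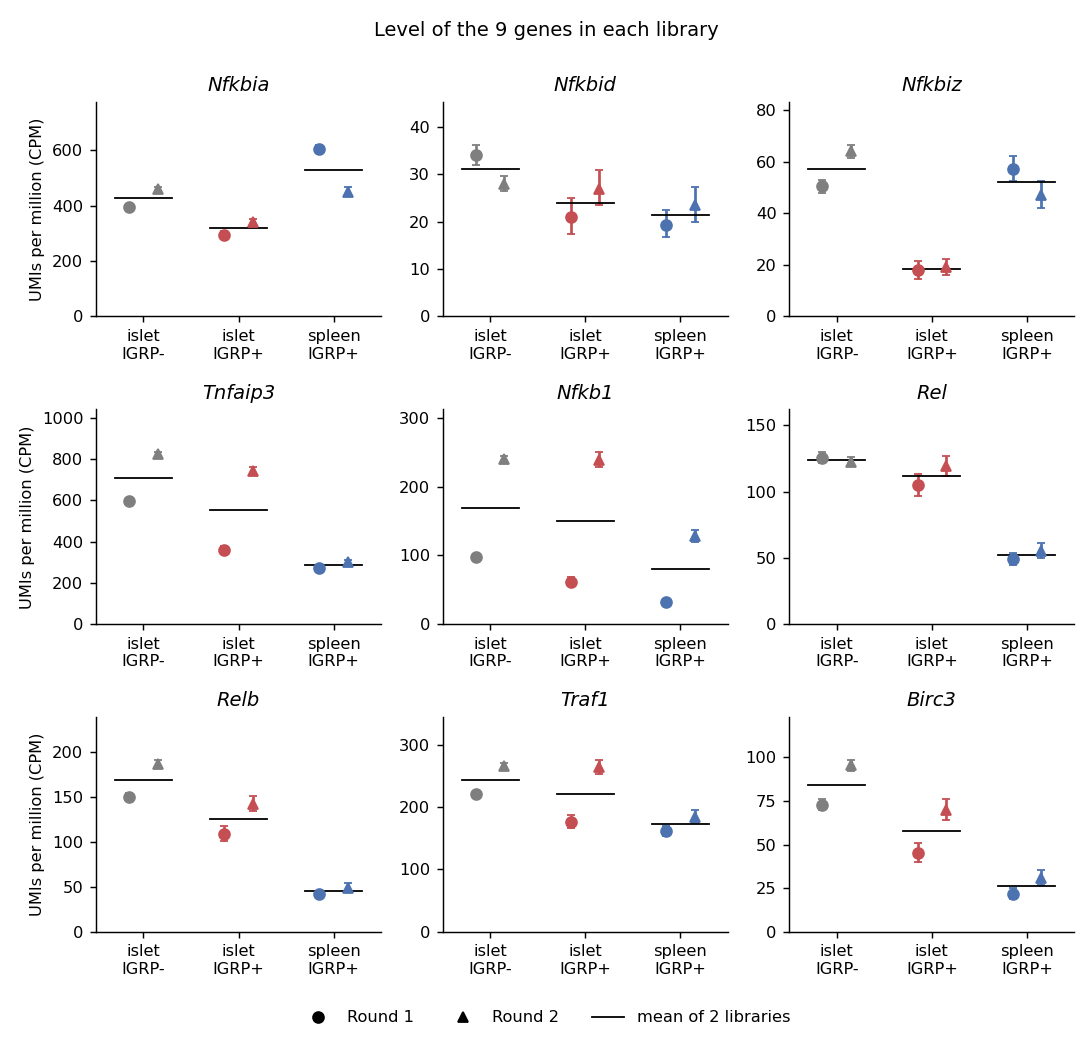
Level of each of the 9 genes in the 6 libraries, in CPM (y axis, from 0) by group (x axis). Circles are Round 1, triangles Round 2, vertical bars the exact 95% Poisson interval of the count, and horizontal lines the mean of the 2 libraries. Nfkbiz was lowest in both islet IGRP+ libraries (17.9 and 19.0 CPM), Rel, Relb and Birc3 were lowest in both spleen libraries, and Nfkb1 differed more between rounds than between groups.

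Nfkbiz passed the test in both comparisons. IκBζ, its product, binds NF-κB p50 in the nucleus. The gene (ENSMUSG00000035356, chr16:55811375-55838899, minus strand, GRCm38) measured 50.5 and 64.1 CPM in islet IGRP-, 17.9 and 19.0 CPM in islet IGRP+, and 57.3 and 47.0 CPM in spleen IGRP+. Both islet IGRP+ libraries lay below all 4 others, and the islet IGRP- and spleen libraries overlapped. Nfkbiz was 3.10-fold lower in islet IGRP+ than in islet IGRP- cells (log2 difference -1.63 ± 0.23 SE, edgeR adjusted p = 0.0426) and 2.69-fold lower than in spleen IGRP+ cells (-1.43 ± 0.23, adjusted p = 0.00965). The first of these calls rested on all 6 libraries, since without any one of them its adjusted p rose to between 0.067 and 0.243 while the log2 difference stayed between -1.72 and -1.52. With round as a block its adjusted p was 1.97e-05.

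Nfkbia (ENSMUSG00000021025, chr12:55489410-55492647, minus strand), which encodes the canonical inhibitor that is degraded and resynthesized with each round of signaling, measured 394 and 461 CPM in islet IGRP-, 295 and 341 CPM in islet IGRP+, and 605 and 451 CPM in spleen IGRP+. The islet IGRP+ libraries were again the lowest and did not overlap either other group, whereas islet IGRP- and spleen did overlap. The differences did not pass the test without the round (-0.43 ± 0.26 against islet IGRP-, adjusted p = 0.425, and -0.66 ± 0.26 against spleen, adjusted p = 0.109). With round as a block, Nfkbia was lower in islet IGRP+ than in spleen IGRP+ cells (-0.64 ± 0.16, adjusted p = 0.00492) and still did not pass against islet IGRP- (adjusted p = 0.0589).

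Nfkbid (ENSMUSG00000036931, chr7:30421732-30428746, plus strand), whose product IκBNS controls a limited set of NF-κB target genes in activated lymphocytes, measured 34.0 and 28.0 CPM in islet IGRP-, 20.9 and 26.9 CPM in islet IGRP+, and 19.4 and 23.5 CPM in spleen IGRP+. The islet IGRP+ libraries were just below those of islet IGRP- and overlapped those of spleen. Neither difference passed the test, with or without the round (adjusted p of 0.344 and 0.375 without it).

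Tnfaip3 (ENSMUSG00000019850, chr10:19000910-19015657, minus strand) encodes A20, which removes the ubiquitin chains that carry the signal to the IκB kinases. It measured 596 and 824 CPM in islet IGRP-, 362 and 741 CPM in islet IGRP+, and 271 and 300 CPM in spleen IGRP+. Both islet groups lay above spleen, and they overlapped each other. The 2.01-fold difference between islet IGRP+ and spleen IGRP+ (1.01 ± 0.30, adjusted p = 0.056) passed with round as a block (0.96 ± 0.17, adjusted p = 0.00041) and in 7 of 17 alternative fits in all. The CPM ratio of islet IGRP+ to spleen was 1.34 in Round 1 and 2.47 in Round 2.

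Among the subunits, Rel and Relb separated the tissues. Rel (ENSMUSG00000020275, chr11:23736847-23770970, minus strand) encodes c-Rel, the subunit most closely tied to antigen receptor signaling in lymphocytes. It measured 125 and 123 CPM in islet IGRP-, 105 and 119 CPM in islet IGRP+, and 49.2 and 55.2 CPM in spleen IGRP+. Relb (ENSMUSG00000002983, chr7:19606217-19629438, minus strand), the transactivating subunit of the non-canonical arm, measured 151 and 187 CPM in islet IGRP-, 109 and 142 CPM in islet IGRP+, and 41.6 and 48.9 CPM in spleen IGRP+. For both genes all 4 islet libraries lay above both spleen libraries. Rel was 2.29-fold (1.20 ± 0.15, adjusted p = 0.00508) and Relb 2.96-fold (1.56 ± 0.15, adjusted p = 0.00309) higher in islet IGRP+ than in spleen IGRP+ cells, and both calls held under each of the 17 alternative fits. Against islet IGRP-, Relb was lower in islet IGRP+ only with round as a block (-0.43 ± 0.11, adjusted p = 0.0113, and 0.227 without it), and Rel did not pass in either fit.

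Nfkb1 (ENSMUSG00000028163, chr3:135584655-135691547, minus strand) encodes p105, the precursor of p50, and overlaps a predicted transcript (Gm43430) on the same strand. It measured 97.0 and 239 CPM in islet IGRP-, 61.7 and 239 CPM in islet IGRP+, and 32.1 and 128 CPM in spleen IGRP+. Round 2 was higher than Round 1 by 2.47-fold, 3.86-fold and 4.00-fold in these groups. Of 2862 genes with a mean of at least 50 CPM, 77 (2.69%) were more than 2-fold higher in Round 2 in all 3 groups, and Nfkb1 was the only one of the 9 genes among them. The rounds were sequenced separately with different read lengths, and pool and sequencing cannot be told apart. The CPM ratio of islet IGRP+ to spleen IGRP+ was 1.93 in Round 1 and 1.86 in Round 2, and the difference passed with round as a block (1.01 ± 0.15, adjusted p = 7.33e-05) but not without it (1.01 ± 0.78, adjusted p = 0.375). Without the Round 2 islet IGRP+ library the unblocked value turned to -0.08.

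Of the TNF receptor adaptors, Birc3 (ENSMUSG00000032000, chr9:7848699-7873186, minus strand), a ubiquitin ligase that restrains cell death, measured 72.8 and 95.4 CPM in islet IGRP-, 45.2 and 70.0 CPM in islet IGRP+, and 22.0 and 30.8 CPM in spleen IGRP+, so that the 3 groups followed each other without overlap. It was 2.33-fold higher in islet IGRP+ than in spleen IGRP+ cells (1.22 ± 0.20, adjusted p = 0.0103), a call lost when either spleen library was left out (adjusted p of 0.0742 without Round 1 and 0.0547 without Round 2). It was lower than in islet IGRP- with round as a block (-0.56 ± 0.11, adjusted p = 0.00268, and 0.227 without it). Traf1 (ENSMUSG00000026875, chr2:34941750-34961772, minus strand) measured 221 and 266 CPM in islet IGRP-, 177 and 264 CPM in islet IGRP+, and 161 and 184 CPM in spleen IGRP+, with overlap between islet IGRP+ and each other group. Its excess over spleen passed only with the block (0.42 ± 0.13, adjusted p = 0.0116, and 0.126 without it).

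**Figure D2:**
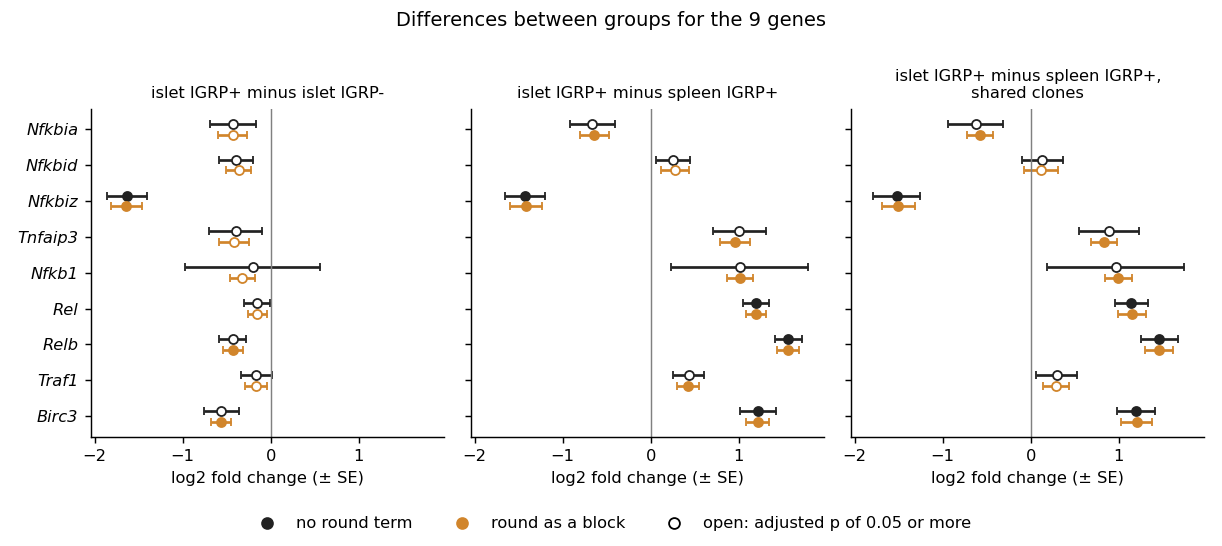
Differences between groups for the 9 genes as edgeR log2 fold changes with their SE (x axis), for islet IGRP+ minus islet IGRP-, islet IGRP+ minus spleen IGRP+, and the latter within shared clones. Black points are fits without a round term, orange points fits with round as a block, and open points have an adjusted p of 0.05 or more. Every value against islet IGRP- lies below 0, from -1.64 for Nfkbiz with the block to -0.15 for Rel, while against spleen Nfkbia and Nfkbiz lie below 0 and the 7 others above it.

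Over the 9 genes, 1 (Nfkbiz) was lower and 0 were higher in islet IGRP+ than in islet IGRP- cells, where 1.04% of all tested genes were called lower and 0.151% higher. The block for round left 3 lower (Nfkbiz, Relb and Birc3) and 0 higher, against 16.1% of all genes lower and 14.4% higher. The median log2 difference of the 9 genes was -0.40, beside -0.01 over all genes. Every one of the 9 had a lower CPM in islet IGRP+ in both rounds, by as little as 1.00-fold for Nfkb1 in Round 2. The share of all genes lower in both rounds was not taken. With every cell thinned to 1000 UMIs, Nfkb1 was seen in a larger share of islet IGRP+ than islet IGRP- cells in Round 2 (21.6% against 20.1%). The same held in that round for Nfkbid (2.51% against 2.37%) and Rel (10.4% against 10.3%). The shares of the other genes were lower in islet IGRP+ there, as were those of every gene in Round 1. The CPM of 6 of the 9 genes did not overlap between the 2 groups, all lower in islet IGRP+, as was true in that direction of 21.3% of the tested genes, with 24.9% not overlapping in the other direction.

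Between islet IGRP+ and spleen IGRP+ cells, 3 genes were higher (Rel, Relb and Birc3) and 1 was lower (Nfkbiz), where 13.7% of all genes were called higher and 12.9% lower. In the blocked fit 6 were higher and 2 lower, leaving only Nfkbid uncalled, against 28.0% and 27.1% of all genes. The CPM of 4 of the 9 (Tnfaip3, Rel, Relb and Birc3) were higher and of 2 (Nfkbia and Nfkbiz) lower without overlap, against 26.4% and 34.6% of all genes. The median was 1.01 for the 9 genes, beside -0.03 over all genes. In the fit with the block the subunits and adaptors were all higher in the islets, and the inhibitors were divided, with Nfkbia and Nfkbiz lower, Tnfaip3 higher and Nfkbid not called. Upper limits on genes per cell differed between the tissues in the study's filter (3500 in islets and 2000 in spleen). With 2000 in both, an alternative chosen after the data were seen, the 4 calls remained and Tnfaip3 also passed (1.43, adjusted p = 0.0282).

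A list of 12 early response genes, which react to stimulation and to cell handling, is given beside these values. In islet IGRP+ against spleen IGRP+ cells, 2 of the 12 were higher (Nr4a1, 2.63 ± 0.58, and Atf3, 3.16 ± 0.32) and 5 lower, among them Jun (-1.98 ± 0.28) and Fos (-1.30 ± 0.25). Their sum was 2105 and 3365 CPM in islet IGRP+, 3931 and 3423 CPM in spleen and 3070 and 4154 CPM in islet IGRP-, and 0 of the 12 passed between the islet groups. All 8 acinar markers were higher in islet IGRP+ than in spleen cells, and both endothelial markers, Pecam1 and Cdh5, were lower. Of the other lists, 1 of 5 CD8 T cell markers and the 1 B cell marker tested were lower there, and 1 of 3 myeloid markers and the 1 endocrine marker tested were higher. Between the islet groups Pecam1 was also lower in islet IGRP+, the direction of Nfkbiz, with 20.2 and 20.9 CPM in islet IGRP- and 2.89 and 5.01 CPM in islet IGRP+. The other endothelial marker, Cdh5, was near 0 in both, with 0.41 and 0.10 CPM in islet IGRP- and 0.17 and 0.13 CPM in islet IGRP+. The source of the Pecam1 RNA was not tested. No other marker of these lists passed there. The part of these genes in the 9 genes' differences was not tested, apart from leaving out cells rich in acinar RNA.

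The tetramer-negative gate holds cells of many specificities, so islet cells carrying RNA of Pdcd1, which encodes the inhibitory receptor PD-1, were compared on their own. After each cell was thinned to 1000 UMIs, 39.2% and 43.9% of islet IGRP+ cells and 18.6% and 16.5% of islet IGRP- cells held a Pdcd1 UMI. Within them Nfkbiz measured 46.8 and 59.6 CPM in islet IGRP- and 23.2 and 15.3 CPM in islet IGRP+, again without overlap. Tnfaip3 measured 720 and 983 CPM against 413 and 781 CPM, with overlap, and Nfkbid 46.3 and 35.3 CPM against 23.7 and 27.6 CPM. None of the 9 genes passed edgeR's test without the round, nor did any of the 10037 genes tested (0.00%), of which 473 (2 of the 9 among them) had an unadjusted p under 0.05 and 33 passed with DESeq2. With round as a block Nfkbiz (-1.46 ± 0.19, adjusted p = 4.96e-07), Nfkbid (-0.56 ± 0.17, adjusted p = 0.037) and Tnfaip3 (-0.49 ± 0.15, adjusted p = 0.035) were lower in islet IGRP+ cells, against 4.64% of all genes called lower and 2.27% higher. The median of the 9 genes was -0.20, beside 0.00 over all genes.

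The TCR sequences allow the same clones to be followed in both tissues. Clones, defined by 1 productive α and 1 productive β chain with identical CDR3 nucleotides, were shared between islets and spleen in 31 cases in Round 1 and 35 in Round 2, and their 632 and 1134 islet cells and 1375 and 1445 spleen cells were summed per library. Within them Nfkbiz measured 17.8 and 16.0 CPM in islets and 56.7 and 48.0 CPM in spleen, and Relb 95.4 and 138 CPM in islets and 40.4 and 51.4 CPM in spleen. The same 4 genes passed as over all cells, namely Nfkbiz (-1.52 ± 0.27, adjusted p = 0.0207), Rel (1.14 ± 0.18, adjusted p = 0.0172), Relb (1.46 ± 0.21, adjusted p = 0.0133) and Birc3 (1.20 ± 0.22, adjusted p = 0.0221), where 8.65% of 9960 genes were called higher and 7.63% lower. Without either spleen library Rel and Birc3 no longer passed (adjusted p of 0.0607 to 0.092). In the blocked fit Tnfaip3 and Nfkb1 were also higher and Nfkbia lower, giving 5 higher and 2 lower, against 25.8% and 25.4% of all genes.

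Clone by clone, 22 clones had at least 15 cells in each tissue, 7 in Round 1 and 15 in Round 2. Relb and Rel were higher in the islets in 22 of 22 clones, and Nfkb1 in 21. Median Relb was 40.5 CPM in spleen and 92.5 CPM in islets among the Round 1 clones, and 45.8 and 129 CPM among those of Round 2. Nfkbiz was lower in the islets in 21 of the 22 clones, with medians of 16.6 against 47.9 CPM in Round 1 and 14.0 against 45.5 CPM in Round 2. Nfkbia was lower in the islets in all 7 Round 1 clones and in 11 of 15 Round 2 clones. Tnfaip3 was higher in 5 of 7 and 15 of 15 clones, and Birc3 in 19 of 22. Values of single clones rest on few UMIs for the genes at low level. Nfkbiz in islets ran from 4.15 to 30.8 CPM in Round 1 and from 6.13 to 29.5 CPM in Round 2, and Rel in spleen reached 0 in Round 2. The share of all genes with such agreement between clones is not given. Clones of one round share the same libraries and are a description, not replicates.

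**Figure D3:**
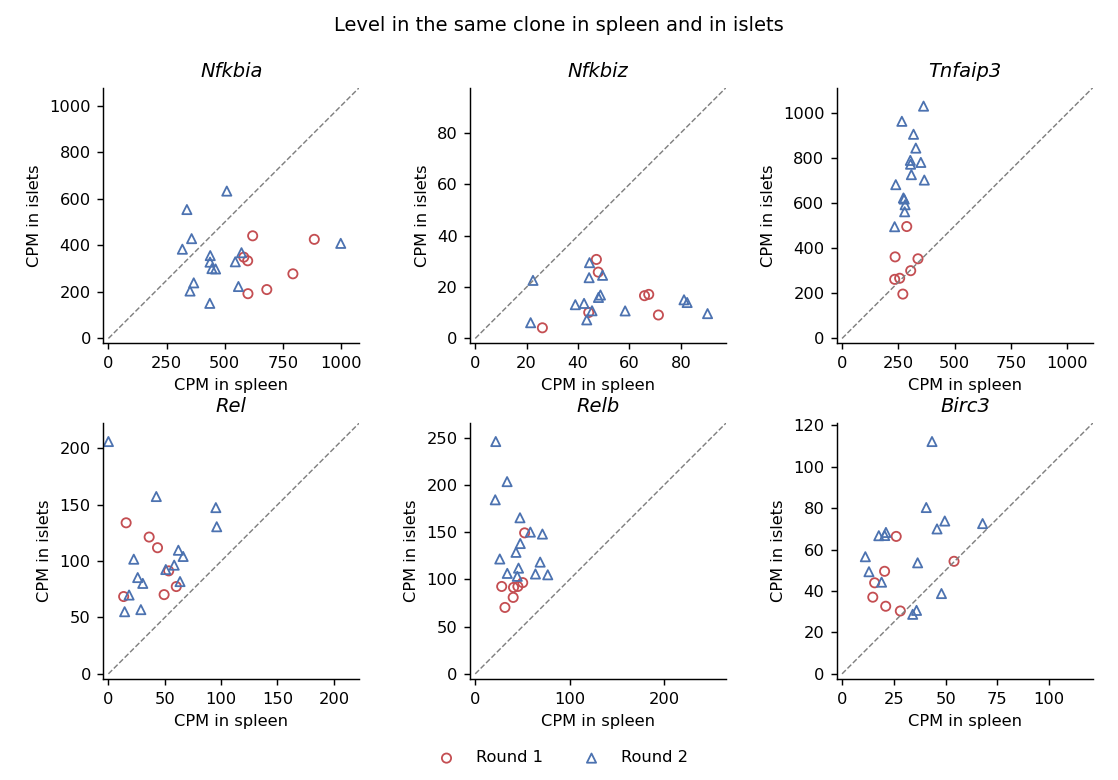
Level of 6 of the genes in the same clone in spleen (x axis) and in islets (y axis), in CPM. Each point is 1 of 22 clones with at least 15 cells in both tissues (red circles Round 1, blue triangles Round 2), and the dashed line marks equal levels. All Rel and Relb points lie above the line, 21 of 22 Nfkbiz points lie below it, and Tnfaip3 in Round 2 lies above it in 15 of 15 clones.

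The share of cells in which each gene was seen was compared after thinning every cell to 1000 UMIs, which left out between 26 and 100 cells a library. Tnfaip3 was detected in 42.8% and 53.2% of islet IGRP- cells, 35.7% and 51.3% of islet IGRP+ cells and 23.3% and 25.1% of spleen IGRP+ cells. Nfkbia was detected in 25.2% and 29.0% of islet IGRP-, 20.8% and 22.4% of islet IGRP+, and 41.1% and 33.0% of spleen cells. Nfkbiz was seen in 5.38% and 6.09% of islet IGRP- cells, 1.95% and 2.12% of islet IGRP+ cells (23 of 1178 and 33 of 1555) and 6.00% and 4.26% of spleen cells, and the exact 95% intervals of the islet IGRP+ libraries, which reached up to 2.92% and 2.97%, lay below those of every other library. Rel was seen in 10.3% to 11.1% of islet cells and 4.95% and 5.27% of spleen cells, and Relb in 11.4% to 17.3% of islet cells and 4.11% and 4.97% of spleen cells. Without thinning, Nfkbiz was seen in 17.4% and 20.7%, 7.06% and 7.51%, and 14.1% and 12.0% of cells of the 3 groups, and Tnfaip3 in 82.3% and 89.7%, 73.4% and 91.5%, and 47.6% and 51.9%.

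Against spleen, the shares of 6 genes were higher and of 2 lower without overlap in islet IGRP+ cells, where 25.6% of 8508 genes were higher and 31.3% lower in this way. Nfkbid was among the 6 by little, with 2.29% and 2.51% in islet IGRP+ and 2.20% and 2.11% in spleen cells. With cells thinned to 2000 UMIs, Nfkbid and Traf1 overlapped. Against islet IGRP-, 4 genes were lower (Nfkbia, Nfkbiz, Relb and Birc3) and 0 higher, beside 17.2% and 25.4% of genes. An exact permutation test of 2 libraries against 2 cannot give a p below 0.333, and no other test of the shares was run. Free RNA was looked at in the 14 acinar-rich cells with 1000 UMIs or more (median 3956.5 UMIs), in which Tnfaip3 was seen in 9 (64.3%), Traf1 in 5 (35.7%) and Nfkbia in 4 (28.6%). Relb and Birc3 were each seen in 2 (14.3%). All of these shares lay within or above the range of the 6 libraries, so the cells set no background for these genes. Nfkbid, Nfkbiz, Nfkb1 and Rel were seen in 0 of 14, which allows a share of up to 21.4% (3 counts of 14). The intervals and this limit cover counting error only.

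The number of the 9 genes seen per cell also differed. At 1000 UMIs the mean was 1.38 and 1.69 genes in islet IGRP-, 1.11 and 1.52 in islet IGRP+, and 1.02 and 1.05 in spleen IGRP+ cells. At least 4 of the 9 were seen in 4.85% and 8.42% of islet IGRP- cells, 2.63% and 6.75% of islet IGRP+ cells and 0.753% and 1.69% of spleen cells. In each round islet IGRP- had the highest mean and spleen the lowest, but Round 1 islet IGRP- fell below Round 2 islet IGRP+, so the islet groups overlapped across rounds.

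**Figure D4:**
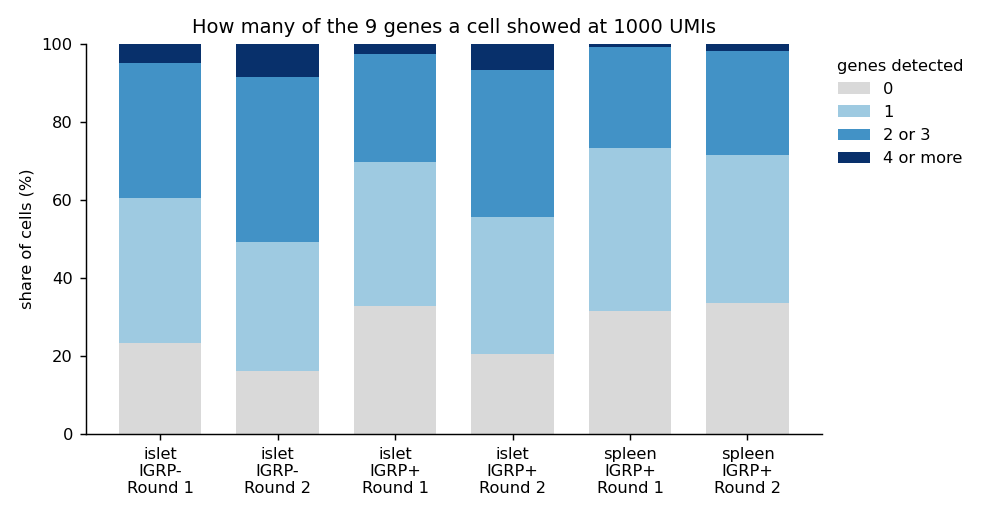
Share of cells (y axis, in percent) in which 0, 1, 2 or 3, or 4 or more of the 9 genes were detected after thinning to 1000 UMIs, for the 6 libraries (x axis). The share with 4 or more was 4.85% and 8.42% in islet IGRP-, 2.63% and 6.75% in islet IGRP+, and 0.753% and 1.69% in spleen IGRP+.

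Nr4a1, an early gene induced by T cell receptor signaling, was used to divide the islet cells of each library. A Nr4a1 UMI was present after thinning in 11.1% and 16.6% of islet IGRP- cells, 9.85% and 18.7% of islet IGRP+ cells and 4.14% and 1.60% of spleen cells. Median depth was similar in both classes of islet cells, with 3718 to 3967 UMIs in those with Nr4a1 and 3838 to 4388.5 in those without. The classes were compared within the 4 islet libraries with library as a term in the model. Their p-values rest on the spread of the class difference between these libraries, estimated with information from all genes tested. The islet libraries of a round came from the same mice, but the model treated their class differences as independent. Small p-values again lean largely on the spread of other genes.

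The nuclear inhibitor Nfkbid showed the largest difference of the 9 genes. It measured 150 and 86.5 CPM in Nr4a1-positive and 19.5 and 16.5 CPM in Nr4a1-negative islet IGRP- cells, and 99.2 and 78.2 CPM against 12.6 and 16.1 CPM in islet IGRP+ cells, and was 5.83-fold higher with Nr4a1 in the fit (2.54 ± 0.09, adjusted p = 1.39e-29). Nfkbia measured 923 and 806 CPM against 328 and 394 CPM in islet IGRP-, and 880 and 730 CPM against 230 and 258 CPM in islet IGRP+ (2.56-fold higher, 1.36 ± 0.07, adjusted p = 1.14e-22). Nfkbiz was 1.80-fold higher (0.85 ± 0.09), Rel 1.58-fold (0.66 ± 0.06) and Tnfaip3 1.35-fold (0.43 ± 0.05), and all 4 libraries showed the direction of each. Among Nr4a1-positive cells Nfkbiz was at 45.1 and 39.1 CPM in islet IGRP+, below the 91.6 and 94.7 CPM of islet IGRP-.

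Birc3 (0.39 ± 0.08, adjusted p = 0.000357) and Traf1 (0.33 ± 0.06, adjusted p = 0.000141) were also higher, by smaller amounts. Birc3 no longer passed without the Round 1 islet IGRP- library (adjusted p = 0.101), and neither Birc3 (0.247) nor Nfkbiz (0.0735) passed where the class was set by a UMI of Nr4a1, Nr4a2 or Nr4a3. Nfkb1 (0.13 ± 0.06, adjusted p = 0.254) and Relb (-0.07 ± 0.07, adjusted p = 0.669) did not pass, and Relb was higher in 2 libraries and lower in 2. In all, 7 of the 9 genes were higher and 0 lower, where 3.94% of 10346 genes were called higher and 3.32% lower. With scaling to library size alone 8 were higher, Nfkb1 being added and Relb turning to 0.02, and the calls over all genes moved from 408 higher and 344 lower to 734 higher and 109 lower. The median of the 9 genes was 0.43, beside -0.01 over all genes. The other 11 early response genes were all higher in the Nr4a1 class, and 5 of the 8 acinar markers were lower.

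Cells with Nr4a1 also showed more of the genes at once. At 1000 UMIs they held a mean of 1.82 and 2.06 of the 9 genes in islet IGRP- and 1.67 and 1.97 in islet IGRP+, against 1.33 and 1.62, and 1.05 and 1.42, in cells without. The interaction of the Nr4a1 class with tetramer binding was tested directly. It did not pass for any of the 9 genes, with the largest values for Nfkbiz (0.61 ± 0.22, adjusted p = 0.545) and Nfkbia (0.41 ± 0.11, adjusted p = 0.155), while 0.184% of all genes passed. For Nfkbia and Nfkbiz an unadjusted p under 0.05 was obtained, and without the Round 2 islet IGRP+ library Nfkbia passed (0.60, adjusted p = 0.00648).

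**Figure D5:**
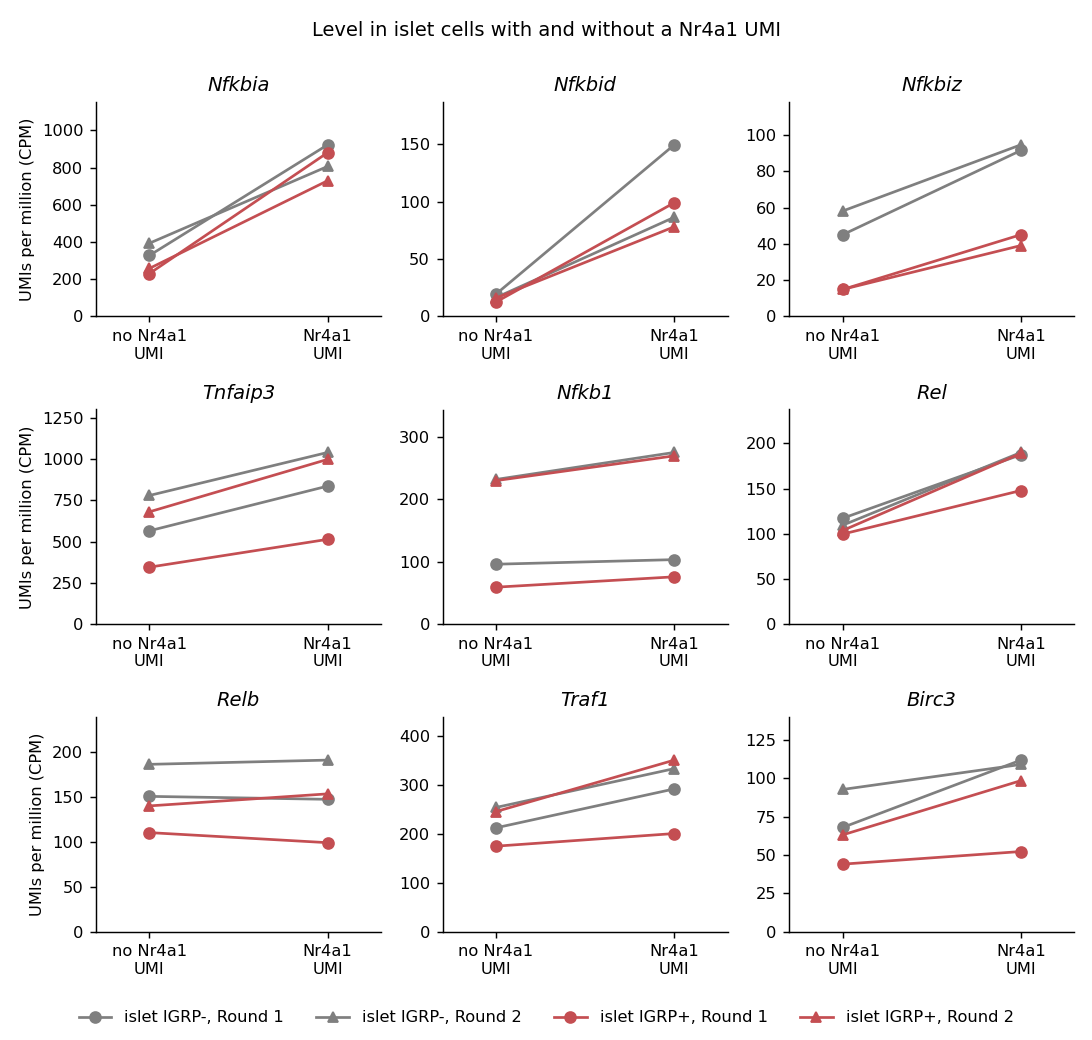
Level of each gene, in CPM (y axis, from 0), in islet cells without and with a Nr4a1 UMI (x axis). Each line joins the 2 classes of 1 library (grey islet IGRP-, red islet IGRP+, circles Round 1, triangles Round 2). Lines rise steeply for Nfkbid and Nfkbia in all 4 libraries and stay nearly level for Relb, whose class ratio ran from 0.90 to 1.10.

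A list of 60 further genes of the pathway, all of which were tested, is summarised by role. Between the islet groups 1 of the 60 passed. This was the ligand Tnfsf8 (CD30L), with 22.6 and 20.5 CPM in islet IGRP- and 5.10 and 6.39 CPM in islet IGRP+ (-1.92 ± 0.26, adjusted p = 0.0397). In the blocked fit 20 of the 60 were lower and 7 higher, where 16.1% of all genes were lower and 14.4% higher. The median of the list was -0.11, beside -0.01 over all genes.

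Between islet IGRP+ and spleen IGRP+ cells, 18 of the 60 were higher and 14 lower, where 13.7% of all genes were called higher and 12.9% lower, with a median of 0.07 beside -0.03 over all genes. The 10 receptors were divided into 7 higher and 3 lower. The costimulatory receptors Tnfrsf4 (OX40) and Tnfrsf9 (4-1BB), both of which signal through TRAF proteins, showed the largest values, with 106 and 132 CPM in islets against 1.77 and 1.45 CPM in spleen for Tnfrsf4 (6.25 ± 0.23, adjusted p = 0.000904), and 287 and 344 CPM against 9.78 and 6.95 CPM for Tnfrsf9 (5.29 ± 0.29, adjusted p = 0.0012). The death-domain receptor Tnfrsf25 (-3.10 ± 0.21) and the IL-18 receptor chain Il18rap (-2.25 ± 0.16) were lower in the islets. Of the 5 ligands 4 were lower, among them Tnfsf14 (LIGHT), at 3.23 and 4.51 CPM in islets and 19.0 and 23.0 CPM in spleen (-2.34 ± 0.20, adjusted p = 0.00234).

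Of the other 5 subunits and IκB proteins, 4 were higher in islet IGRP+ than in spleen IGRP+ cells and 0 lower. They were Nfkb2 (2.21 ± 0.37), which encodes the precursor of p52, the partner of RelB, and Bcl3, Nfkbib and Nfkbie, while Rela missed the threshold (0.49 ± 0.17, adjusted p = 0.0843). These genes were named after their values were seen. Of the 8 IκB kinases and upstream kinases 1 was lower and 0 higher. Of the 8 negative regulators 2 were higher, and of the 10 known target genes 4 were higher, led by the survival gene Bcl2a1d (2.52 ± 0.67, adjusted p = 0.0396), and 2 lower. Bcl2a1d has near-identical copies, so its counts are uncertain. Of the 10 adaptors and ubiquitin ligases 1 was higher and 1 lower.

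Among 2862 genes with a mean of at least 50 CPM, those whose centered log2(CPM + 1) profile over the 6 libraries was nearest to that of Nfkbia were 5031425E22Rik, Klf6 and Pim1, with root mean square differences of 0.11, 0.13 and 0.15. Nearest to Tnfaip3 were Ifnar1 (0.14), Hbp1 and Nfatc1 (0.15 each). Klf6, for example, measured 280 and 346 CPM in islet IGRP-, 235 and 312 CPM in islet IGRP+, and 431 and 318 CPM in spleen IGRP+. The likeness is a description over 6 libraries in 3 groups.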

How the data were processed

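Single-cell RNA-seq and paired TCR libraries came from 2 rounds, each giving islet IGRP-, islet IGRP+ and spleen IGRP+ cells from the same pool of 10 mice. The deposited matrices are unnormalized UMI counts that the authors obtained with Cell Ranger on mm10 (cellranger 5.0.1 in the matrix header). The deposited TCR tables list each assembled chain with its CDR3 nucleotides and UMI counts, and clones were built from productive chains.

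Cells with under 5% mitochondrial UMIs and 200 to 3500 genes (islets) or 200 to 2000 genes (spleen) were kept. No doublet caller was run, and an alternative left out cells carrying over 1 productive β chain. UMIs were summed per library, since cells are not replicates, and tested in edgeR 4.0.16 (R 4.3.3) with TMM scaling, filterByExpr and the quasi-likelihood test, calling an adjusted p under 0.05. DESeq2 1.42.0, other scalings, filters and cell sets, and leaving out each library, were alternatives. Cells were thinned to 1000 UMIs with a fixed seed for shares and for the Pdcd1 and Nr4a1 classes. Intervals are exact at 95%, the limit for a count of 0 is 3 counts, and both cover counting error only. The code was tested on simulated data.

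The genes and lists were chosen with earlier results of these data known. The text names all 9 genes, and from the list of 60 pathway genes the 3 with the largest change in each direction of the first 2 comparisons (past the threshold, same direction in both rounds, 20 CPM or more on average where higher). It also names the 3 genes of at least 50 CPM nearest to Nfkbia and to Tnfaip3 over the 6 libraries. Rounds pair the libraries, since a round's tissues came from the same mice. Deviations from the group means correlated between same-round libraries with r of 0.694, 0.717 and 0.630 over 11277 genes. The rounds were also sequenced separately, so this correlation covers all that a round shared and cannot show pairing by mice alone. Gene positions are from GENCODE M21 (GRCm38) and promoters from RefSeq. Python 3.11.15 was used for levels and shares. Values of some genes of the lists are not reported here.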

Additional observations from a re-analysis of the deposited data

How the results depend on the processing

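Calls depended on how the round was treated, on single libraries and, for the Nr4a1 classes, on how the class was set. With the round as a block (the pairing by pool), 3 of the 9 genes passed between the islet groups (1 without it), 8 between islet IGRP+ and spleen IGRP+ (4 without it), 3 in Pdcd1 cells (0 without it) and 7 in shared clones (4 without it). Over all genes the block gave 3442, 6215, 694 and 5094 calls, against 134, 3004, 0 and 1622 without it. Between the islet groups 0 of the 9 passed with library size only, with only the 4 libraries compared, or with cells thinned to 1000 UMIs, and all genes gave 53, 24 and 80 calls there, 574 with DESeq2 and 711 with no filter on low counts. Between islet IGRP+ and spleen IGRP+, thinning gave 1700. In Pdcd1 cells, no filter gave 1 of the 9 and 142 genes, and DESeq2 33 genes. In shared clones no filter gave 2916 genes. For the Nr4a1 classes DESeq2 gave 410 genes, and 1139 passed with the class set by Nr4a1, Nr4a2 or Nr4a3, against 752. For the interaction that class gave 1 of the 9 (Nfkbid, -0.78, adjusted p = 0.0109) and 783 genes, DESeq2 gave 0 and no upper limit on genes per cell gave 1, against 19. The cause was not tested. Leaving out 1 library gave 0 to 0 of the 9 and 0 to 30 genes between the islet groups, 3 to 5 and 892 to 2050 against spleen, 0 to 0 and 3 to 34 in Pdcd1 cells, 2 to 6 and 989 to 1835 in shared clones, 6 to 7 and 289 to 710 for the Nr4a1 classes, and 0 to 1 and 1 to 26 for the interaction. Without 1 library, the genes whose shares did not overlap numbered 5 to 8 between the islet groups and 8 to 9 against spleen. There 1 library is set against 2, which leaves less room for overlap, and no share over all genes was taken. At 2000 UMIs Rel was also lower than in islet IGRP- without overlap, while Nfkbid and Traf1 overlapped with spleen. With no thinning Rel was again lower without overlap, Relb and Birc3 overlapped between the islet groups, and Nfkbid overlapped with spleen. The difference in the mean number of the 9 genes per cell, -0.22 between the islet groups, ranged from -0.426 to -0.015 without 1 library and was -0.400 at 2000 UMIs and -0.445 with no thinning, and that against spleen, 0.282, from 0.0768 to 0.488 and was 1.14 with no thinning.

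Directions turned for values that did not pass. Between the islet groups Rel became 0.0275 with thinning. Leaving out 1 library moved Nfkb1 between -1.30 and 0.49 and Traf1 between -0.34 and 0.0070 there, between -1.32 and 0.37 and between -0.19 and 0.11 in Pdcd1 cells, and moved Nfkb1 between -0.0767 and 2.13 against spleen and between -0.22 and 2.29 in shared clones. Relb became 0.0174 in the Nr4a1 classes with library size only. For the interaction, Traf1 became 0.0019 with DESeq2 size factors, and Rel -0.0063 without cells with more than 1 β chain. With the Nr4a1, Nr4a2 or Nr4a3 class, Tnfaip3, Nfkb1 and Rel became -0.0095, -0.0104 and -0.015, and Traf1 0.0781. With no filter Rel became -0.0221 and Relb -0.00092. With no upper limit Nfkbid became 0.0142, Nfkb1 -0.0054 and Rel -0.0446. Leaving out 1 library moved the interaction between -0.30 and 0.11 for Traf1, -0.37 and 0.24 for Nfkbid, -0.0192 and 0.19 for Nfkb1, -0.25 and 0.14 for Rel, -0.24 and 0.14 for Relb, and -0.27 and 0.26 for Birc3. Depth limits the genes with few UMIs, such as Nfkbiz, which rested on 105 and 152 UMIs in the islet IGRP+ libraries.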
